A study of Mus musculus with 17 samples.

Results

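C2C12 cells that carried the SRF-FOXO1 fusion were compared with C2C12 cells that carried wild-type SRF, over all genes of the deposited count table. The comparison used the 3 SRF-FOXO1 and the 3 SRF libraries, 6 of the 17 libraries of the series, chosen by their titles. C2C12 is a mouse myoblast line, which can withdraw from the cell cycle and fuse into muscle fibres. Every library came from cells grown in DMEM with 10% fetal bovine serum, and poly(A) RNA was sequenced with a stranded kit. The SRF libraries came from cells labelled with the SRF treatment, and the SRF-FOXO1 libraries from cells labelled with the fusion. The 3 pMSCV libraries, from cells given the empty vector, are shown beside them for some genes and entered no test here. The labels name no clone, integration number or sorting step, and they do not say whether replicates were separate cultures, so p-values measure the spread between these libraries. The series concerns SRF fusion genes of myoid soft tissue tumours, and setting the fusion beside wild-type SRF asks how the lines differ. The SRF line also had far higher Srf counts than the fusion line, as given below. Joining to FOXO1 and this difference in Srf level cannot be told apart in this comparison.

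Serum response factor (SRF) is a transcription factor that binds CArG boxes, short A/T-rich sites flanked by CC and GG. With cofactors of the myocardin family it drives actin cytoskeleton and muscle genes, and with ternary complex factors it drives immediate-early genes after serum. FOXO1 is a forkhead transcription factor that insulin signalling holds out of the nucleus through AKT. Its known targets include genes of autophagy, glucose and stress metabolism and cell cycle arrest. In myoblasts, MyoD and Myf5 set the lineage, and M-cadherin, desmin, acetylcholine receptor subunits and sarcomere proteins mark its progress.

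In a fit without a term for replicate number, the lines differed in 528 of 13949 genes tested at an adjusted p under 0.05 (quasi-likelihood test of edgeR, adjusted by Benjamini-Hochberg). These genes are termed called below. This is 3.79% of genes, 267 higher (1.91%) and 261 lower (1.87%) in SRF-FOXO1. Myoblast adhesion, neuromuscular junction and intermediate filament genes, the scavenger receptor Ackr3 and genes of ribosome assembly were among the lower ones. Matrix genes such as Tnxb, the PI3-kinase inhibitor Pik3ip1, the growth factor Hgf and some interferon-response genes were among the higher ones. Of the called genes, 300 differed at least 2-fold (197 higher, 103 lower) and 106 at least 4-fold (64 higher, 42 lower). In all 528 the libraries of the groups did not overlap, which was also so in 5106 (36.6%) of the genes tested.

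The calls lay close to the threshold and the count depended on the fit. Ackr3 had an adjusted p of 0.000648, and the other 527 lay between 0.0436 and 0.0498. There were 2591 genes under 0.1 and 4088 (29.3%) at an unadjusted p under 0.05. Fitted together with all 17 libraries, only Srf was called (0.00664% of 15062 genes), with 2895 genes at an unadjusted p under 0.05. All 528 genes kept their direction in that fit and 482 had an unadjusted p under 0.05. The libraries of the lines are numbered 1 to 3, and with that number as a block 219 genes (1.57%) were called, of which 135 were among the 528. Where the block ended a call, its adjusted p is given after the words "with the block". DESeq2 called 2649 of 15013 genes (17.6%), 526 of them among the 528. Without SRF replicate 1, 2 or 3 there were 1, 6 and 3 calls, without SRF-FOXO1 replicate 1 or 3 there were 3 and 1, and without SRF-FOXO1 replicate 2 there were 1808 of 14326 (12.6%). Counts in the gene lists are therefore given in the reported fit, with the block, without SRF-FOXO1 replicate 2 and in DESeq2, against the shares above. Of these, the fit without SRF-FOXO1 replicate 2 and DESeq2 made more calls over all genes than the reported fit. Without SRF-FOXO1 replicate 3 the only call over all genes was Ackr3, so lists that do not hold Ackr3 had 0 calls. The stated number of members tested is that of the reported fit. It differed somewhat in some lists without SRF-FOXO1 replicate 2 and in DESeq2.

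**Figure D1:**
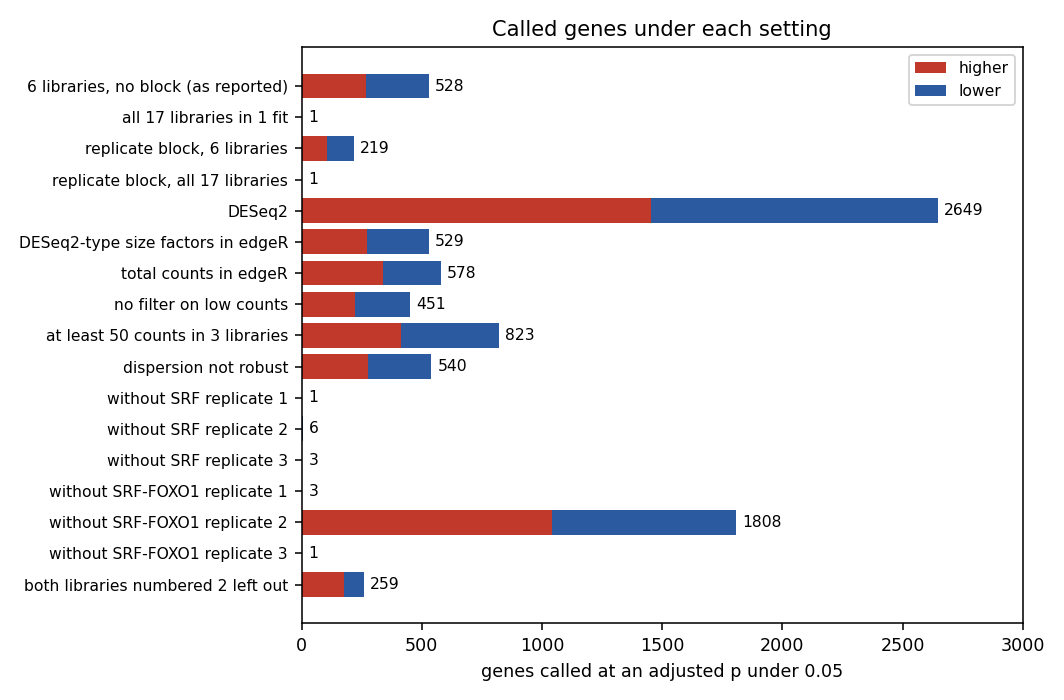
Number of genes called at an adjusted p under 0.05 in SRF-FOXO1 against SRF (horizontal axis) under each setting (vertical axis), split into genes higher and lower in SRF-FOXO1. The reported fit gives 528, DESeq2 gives 2649, and the fits of all 17 libraries give 1.

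The SRF-FOXO1 libraries differed more among themselves than the SRF libraries did. Their log2 CPM correlated across genes at 0.942 between replicates 2 and 3, 0.966 between 1 and 3 and 0.967 between 1 and 2, while the SRF libraries correlated at 0.970 to 0.984 with each other. Library totals ran from 21047216 to 23543734 counts in the 6 libraries, and counting error mattered only for weak genes. Levels are in CPM, counts scaled to library size with TMM factors, and are given in the order of replicates 1, 2 and 3. Fold changes are SRF-FOXO1 over SRF on the log2 scale, and the median over all genes was 0.02. A positive fold change was found in 51.7% of all genes tested, the share beside which such counts in the lists stand. At an unadjusted p under 0.05, 15.8% of genes were higher and 13.5% lower.

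**Figure D2:**
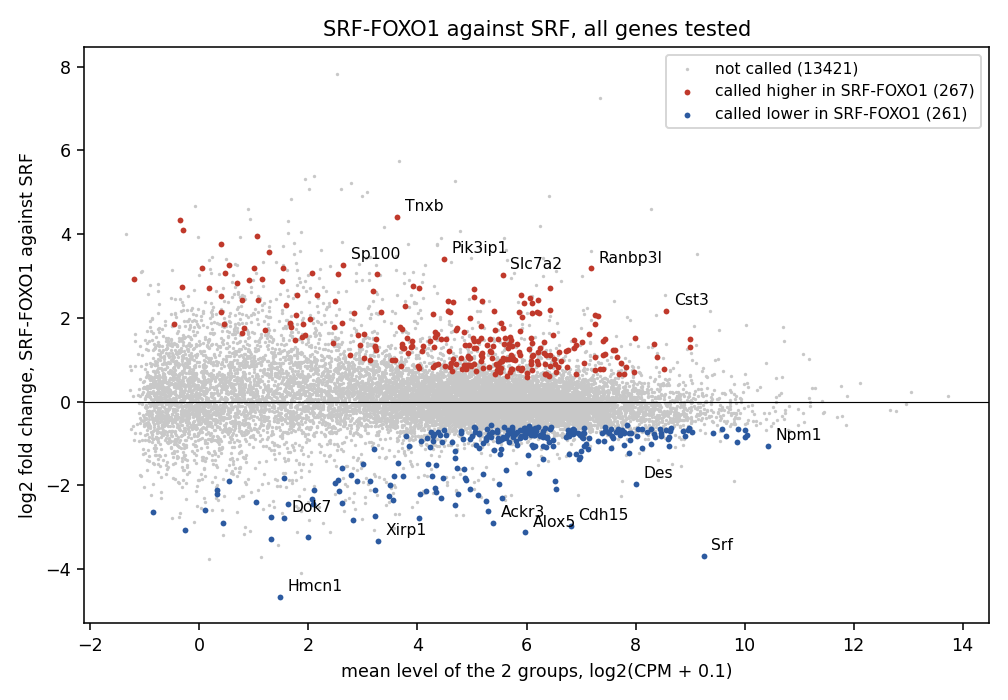
Each point is a gene, placed by its mean level in both groups (horizontal axis, log2 of CPM + 0.1) and its log2 fold change in SRF-FOXO1 against SRF (vertical axis). The 267 genes called higher are red and the 261 called lower are blue. Srf lies at -3.68 and Tnxb at 4.41.

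Srf (ENSMUSG00000015605, chr17:46548329-46556175, minus strand) was at 1673, 678 and 1033 CPM in SRF and 105, 84.1 and 71.8 CPM in SRF-FOXO1. The SRF libraries lay far above the fusion libraries, which were near the 81.3 ± 13.7 CPM (SD, n = 3) of pMSCV, and the difference was log2 fold change -3.68, SE 0.36, adjusted p 0.0436. Foxo1 (ENSMUSG00000044167, chr3:52268336-52353221, plus strand) was at 19.4, 27.7 and 17.3 CPM in SRF and 22.8, 33 and 38.5 CPM in SRF-FOXO1. These ranges overlapped and the gene was not called (log2 fold change 0.57, SE 0.25, adjusted p 0.188). How far reads of either construct count towards the mouse genes is not known. The counts set the SRF line apart and do not check the SRF-FOXO1 label. Of the other 10 cofactor and upstream genes tested (ternary complex factors, MRTFs, Scai and others) 0 were called, and 5 had an unadjusted p under 0.05. Of all 11 genes in the list, Srf included, 1 was called with the block, 2 without SRF-FOXO1 replicate 2 and 5 in DESeq2. Elk3, a ternary complex factor, was at 139, 135 and 152 CPM in SRF and 105, 107 and 102 CPM in SRF-FOXO1, with no overlap (log2 fold change -0.42, adjusted p 0.062). Mrtfa, which carries the actin signal to SRF, was at 73.3, 97.6 and 111 CPM in SRF and 92.5, 104 and 90.9 CPM in SRF-FOXO1, and its ranges overlapped.

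Promoters that held a CArG box or a FOXO motif are shown for 4 genes, because the fusion joins proteins known to bind these sites. The genes were taken, in order of the size of the fold change, from the called genes named by the rule given below. Sema6a was left out of this choice, and other called genes also hold these motifs. Each is the 250 bases before the start site in RefSeq, build GRCm38.p6, 5′ to 3′ on the gene's strand. Capitals mark the motif: the CArG box, or GTAAACA (on either strand) for FOXO. They are chr1:150993436-150993685 (minus strand) for Hmcn1, chr17:46556163-46556412 (minus strand) for Srf, chr5:16553245-16553494 (plus strand) for Hgf and chr3:81036166-81036415 (plus strand) for Pdgfc.
Hmcn1: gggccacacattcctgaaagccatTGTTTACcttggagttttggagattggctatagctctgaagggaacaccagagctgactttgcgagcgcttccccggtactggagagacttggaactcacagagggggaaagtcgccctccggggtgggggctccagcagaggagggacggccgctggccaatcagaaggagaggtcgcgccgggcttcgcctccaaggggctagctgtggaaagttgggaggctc
Srf: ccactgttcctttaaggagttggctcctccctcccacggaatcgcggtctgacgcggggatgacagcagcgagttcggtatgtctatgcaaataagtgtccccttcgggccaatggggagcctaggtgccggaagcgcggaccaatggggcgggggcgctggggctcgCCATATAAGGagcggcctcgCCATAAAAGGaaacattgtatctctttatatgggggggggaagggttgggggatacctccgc
Hgf: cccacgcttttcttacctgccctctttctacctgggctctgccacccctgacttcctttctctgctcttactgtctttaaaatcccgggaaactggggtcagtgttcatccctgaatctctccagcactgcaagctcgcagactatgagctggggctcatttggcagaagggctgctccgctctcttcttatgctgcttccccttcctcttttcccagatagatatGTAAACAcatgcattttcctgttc
Pdgfc: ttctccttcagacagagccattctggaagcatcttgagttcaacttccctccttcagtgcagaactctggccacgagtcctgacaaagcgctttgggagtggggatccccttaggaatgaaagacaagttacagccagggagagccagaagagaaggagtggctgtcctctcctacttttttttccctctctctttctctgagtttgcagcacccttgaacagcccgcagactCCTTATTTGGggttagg
The Srf promoter holds CArG boxes that begin 82 and 62 bases before the start, and that of Pdgfc holds a CArG box 17 bases before it. The FOXO motif begins 226 bases before the start in Hmcn1 and 24 in Hgf. Over all 27025 genes with a promoter in the reference, 1.62% hold a CArG box and 3.54% the FOXO motif in this window. Of the SRF cytoskeletal targets matched by symbol, 7 of 27 (25.9%) hold a CArG box, and of the FOXO targets 3 of 25 (12%) hold the FOXO motif. Of the called genes matched by symbol, 1.83% of 218 higher and 2.88% of 208 lower ones hold a CArG box, beside 1.46% of the 10088 matched among all genes tested. The FOXO motif is held by 3.21%, 2.40% and 2.61% of the same sets, and 13941 symbols were looked up among the genes tested. A match is a description of the letters and not a bound site. Hmcn1 and Pdgfc were lower and Hgf was higher in SRF-FOXO1, as given below.

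Among myoblast identity genes, Cdh15 and Itga7 were lower in the fusion line. Cdh15 (M-cadherin, which joins myoblasts and satellite cells) was at 173, 149 and 276 CPM in SRF and 30.4, 22.3 and 22.9 CPM in SRF-FOXO1. All fusion libraries lay below all SRF libraries, at about the same level in each (log2 fold change -2.96, SE 0.27, adjusted p 0.0436). The adjusted p of Cdh15 was 5.5e-23 to 0.179 over 15 other settings. Itga7, the laminin-binding integrin subunit of muscle, was at 284, 202 and 288 CPM in SRF and 126, 135 and 95.6 CPM in SRF-FOXO1, again without overlap (log2 fold change -1.1, SE 0.19, adjusted p 0.0436, 0.0525 with the block). Of the 14 tested myogenic regulator and satellite cell genes, 0 were called higher and 2 lower (1 with the block, Cdh15), with a median log2 fold change of -0.74. Of these 14, 6 had a positive fold change, the largest 0.76, and 8 a negative one. At an unadjusted p under 0.05, 1 was higher and 5 were lower. There were 2 calls without SRF-FOXO1 replicate 2, and DESeq2 made 5, all lower. Myod1, the myogenic master factor, was at 28.3, 25.1 and 73 CPM in SRF and 11.8, 6.66 and 10.4 CPM in SRF-FOXO1. Its groups did not overlap, yet it missed the threshold (log2 fold change -2.11, SE 0.47, adjusted p 0.0531), as did Myf5 (log2 fold change -1.42, SE 0.37, adjusted p 0.0656). Mef2c, a cofactor of MyoD in muscle transcription, was at 12, 9.51 and 9.63 CPM in SRF and 5.06, 1.27 and 1.25 CPM in SRF-FOXO1, with SRF-FOXO1 replicates 2 and 3 lowest (log2 fold change -2.02, SE 0.57, adjusted p 0.0756). Taken pair by pair, fusion minus SRF libraries of the same number, the list's median was -0.03, -1.36 and -0.91.

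The 8 myoblast markers, each also a member of another list, were summed. Their level was 882 to 1608 CPM in SRF and 345 to 399 CPM in SRF-FOXO1, and 4 of 8 were called lower (1 with the block, 4 without SRF-FOXO1 replicate 2, 6 in DESeq2). Des (desmin, the muscle intermediate filament) was at 284, 324 and 624 CPM in SRF and 114, 108 and 88.5 CPM in SRF-FOXO1, without overlap (log2 fold change -1.97, SE 0.32, adjusted p 0.0436, 0.0536 with the block). In bulk RNA, fewer cells of a type and less RNA per cell cannot be told apart. Mymk, the fusion protein myomaker, was low in all libraries, at 1.54, 0.914 and 2.18 CPM in SRF and 1.7, 0.328 and 2.59 CPM in SRF-FOXO1, with overlap.

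Genes of the neuromuscular junction had the lowest median of the pathway and function lists (cell type markers not counted), -0.97, with 4 of 14 called lower and 0 higher (2 with the block, Dok7 and Chrnb1). DESeq2 called 7 lower and 3 higher, and without SRF-FOXO1 replicate 2 there were 4 lower. Chrnb1, the acetylcholine receptor beta subunit, was at 61.3, 41.4 and 67.2 CPM in SRF and 15.7, 10.6 and 9.36 CPM in SRF-FOXO1. Every fusion library lay below every SRF library (log2 fold change -2.23, SE 0.27, adjusted p 0.0436). The alpha subunit gene Chrna1 was at 108, 105 and 223 CPM in SRF and 41.6, 37.1 and 36.2 CPM in SRF-FOXO1, with SRF replicate 3 highest (log2 fold change -1.91, SE 0.31, adjusted p 0.0436, 0.0514 with the block). Dok7, the adaptor that activates the kinase MuSK at the synapse, was at 5.63, 3.61 and 5.58 CPM in SRF and 0.523, 0.516 and 1.07 CPM in SRF-FOXO1. It was low in both lines and lower in the fusion line (log2 fold change -2.78, SE 0.43, adjusted p 0.0436). Erbb3, a neuregulin receptor, was at 5.0, 3.93 and 4.45 CPM in SRF and 1.39, 1.36 and 0.936 CPM in SRF-FOXO1 (log2 fold change -1.84, SE 0.31, adjusted p 0.0436, 0.0514 with the block). The delta subunit gene Chrnd was at 34.4, 26 and 19.1 CPM in SRF and 10.7, 2.34 and 1.92 CPM in SRF-FOXO1, and although its groups did not overlap it missed the threshold (log2 fold change -2.39, SE 0.68, adjusted p 0.0766). Erbb2, Agrn and Ncam1 differed by log2 fold changes of 0.13, 0.29 and -0.10 and were not called. The list did not move one way: 5 of 14 members had a positive fold change, the largest 3.01, and 9 a negative one. At an unadjusted p under 0.05 there were 4 higher and 7 lower, beside 15.8% and 13.5% of all genes tested.

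Sarcomere genes were weakly expressed and mostly not called, 1 lower and 0 higher of 22 (3 lower with the block, 1 without SRF-FOXO1 replicate 2, 4 in DESeq2). Ttn, the giant spring of the sarcomere, was at 60.2, 31.4 and 40.8 CPM in SRF and 15.5, 5.39 and 7.18 CPM in SRF-FOXO1. The fusion libraries did not reach the lowest SRF library (log2 fold change -2.22, SE 0.44, adjusted p 0.048). Tnnt2, the cardiac-type troponin T made by immature muscle, was at 37.7, 20.3 and 54.1 CPM in SRF and 9.89, 4.41 and 13.3 CPM in SRF-FOXO1 (log2 fold change -2.0, SE 0.49, adjusted p 0.061, 0.0256 with the block), and Myh3, embryonic myosin, was at 13.8, 8.37 and 12.9 CPM in SRF and 10.5, 0.938 and 6.11 CPM in SRF-FOXO1, with overlap. The median of -0.26 became 0.05 without SRF-FOXO1 replicate 2 and kept its sign in 13 of 15 other settings. By pairs of the same number it was -0.40, -1.01 and -0.30. Of the 22 genes, 8 had a positive and 14 a negative fold change. At an unadjusted p under 0.05, 0 were higher and 5 lower.

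**Figure D3:**
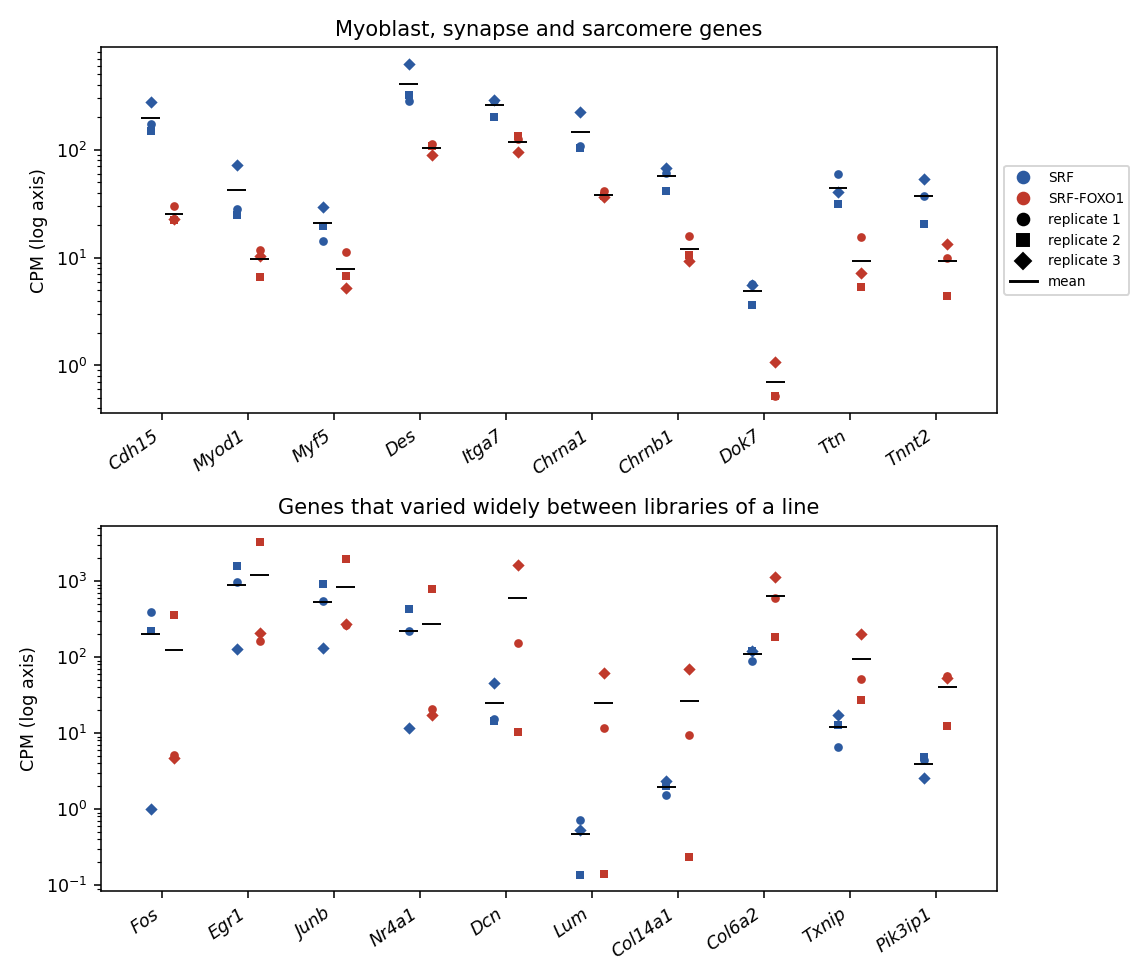
CPM (vertical, log axis) of 20 genes in the 3 SRF and 3 SRF-FOXO1 libraries; marker shape gives the replicate number and black bars are means. Above, myoblast, synapse and sarcomere genes, with Cdh15 between 22.3 and 30.4 CPM in the fusion line and at 149 CPM or more in SRF. Below, genes that varied widely between libraries of a line, such as Fos and Lum.

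Among the remaining genes with the largest fall, several are known from muscle or from signalling at the cell surface. Ackr3 (ENSMUSG00000044337, chr1:90203980-90216751, plus strand), an atypical receptor that removes the chemokine CXCL12, was at 74.7, 70.3 and 76.5 CPM in SRF and 10.5, 9.71 and 9.19 CPM in SRF-FOXO1. The libraries of each line lay very close together, and Ackr3 had the smallest p of all genes (log2 fold change -2.9, SE 0.13, adjusted p 0.000648). Ackr3 was called in 13 of 15 other settings, all but the fits of 17 libraries, with adjusted p 1.51e-71 to 0.175. Xirp1, an actin-binding protein of muscle attachment sites, was at 24.1, 16.4 and 11.8 CPM in SRF and 2.22, 1.22 and 1.65 CPM in SRF-FOXO1, without overlap (log2 fold change -3.33, SE 0.37, adjusted p 0.0436). Alox5, the lipoxygenase of leukotriene synthesis, was at 116, 72.4 and 151 CPM in SRF and 17.2, 8.07 and 13.2 CPM in SRF-FOXO1, the fusion libraries again lowest (log2 fold change -3.13, SE 0.38, adjusted p 0.0436). Sema6a, a transmembrane semaphorin, was at 28.9, 25.6 and 30.2 CPM in SRF and 6.02, 3.42 and 2.68 CPM in SRF-FOXO1 (log2 fold change -2.78, SE 0.31, adjusted p 0.0436).

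Vgll2, a cofactor of TEAD factors in skeletal muscle, was at 5.63, 3.52 and 11.9 CPM in SRF and 0.915, 0.797 and 0.491 CPM in SRF-FOXO1. Its fusion libraries were all under 1 CPM (log2 fold change -3.23, SE 0.54, adjusted p 0.0436, 0.0524 with the block). Mfsd2a, a lysophospholipid transporter, was at 16.8, 9.37 and 10.5 CPM in SRF and 2.27, 1.69 and 1.16 CPM in SRF-FOXO1, without overlap (log2 fold change -2.82, SE 0.36, adjusted p 0.0436). In the other lines, which entered no test here, Ackr3 averaged 131 ± 7.4 CPM (SD, n = 3) in pMSCV, 42.7 CPM with SRF-ICA1L and 39.4 CPM with SRF-RELA. It was at 6.15 and 91.1 CPM in the SRF-PDGFRB libraries.

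Among called genes with at least 50 counts in every fusion library, predicted genes left out, Tnxb had the largest rise. Tnxb (tenascin-X, a matrix protein that organises collagen; ENSMUSG00000033327, chr17:34670535-34719815, plus strand) was at 0.772, 1.6 and 0.959 CPM in SRF and 28.4, 6.33 and 35.2 CPM in SRF-FOXO1. Replicate 2 was the lowest fusion library and still above every SRF library (log2 fold change 4.41, SE 0.70, adjusted p 0.0436, 0.0658 with the block). Ranbp3l, a Ran-binding nuclear export factor, was at 28.7, 36.1 and 22.9 CPM in SRF and 324, 77.8 and 379.7 CPM in SRF-FOXO1, with the same order of libraries (log2 fold change 3.18, SE 0.59, adjusted p 0.046, 0.0989 with the block). Slc7a2, a transporter of cationic amino acids, was at 9.5, 14.8 and 7.23 CPM in SRF and 79, 42.8 and 129.7 CPM in SRF-FOXO1 (log2 fold change 3.02, SE 0.46, adjusted p 0.0436, 0.069 with the block). Sp100, a nuclear body protein, was at 1.36, 1.33 and 0.828 CPM in SRF and 8.98, 6.8 and 17.5 CPM in SRF-FOXO1, and remained called with the block (log2 fold change 3.26, SE 0.45, adjusted p 0.0436). Pawr, a pro-apoptotic regulator, was at 1.0, 1.69 and 1.05 CPM in SRF and 15.7, 9.0 and 5.75 CPM in SRF-FOXO1, here with replicate 1 the highest fusion library (log2 fold change 3.04, SE 0.45, adjusted p 0.0436).

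Agt, the precursor of angiotensin, was at 0.182, 0.823 and 0.654 CPM in SRF and 6.67, 2.39 and 6.02 CPM in SRF-FOXO1 (log2 fold change 3.19, SE 0.64, adjusted p 0.046, 0.0619 with the block). Phactr1, which binds actin and protein phosphatase 1, was at 0.727, 1.28 and 0.61 CPM in SRF and 3.36, 5.49 and 12.9 CPM in SRF-FOXO1 (log2 fold change 3.07, SE 0.59, adjusted p 0.0458, 0.0525 with the block), and C1s2, a complement C1s protease with a near-identical neighbour gene that may share its reads, was at 2.04, 2.79 and 1.44 CPM in SRF and 15.6, 5.67 and 29.5 CPM in SRF-FOXO1 (log2 fold change 3.04, SE 0.62, adjusted p 0.0491, 0.0936 with the block). Coq8a, needed for coenzyme Q synthesis, was at 0.318, 0.777 and 0.392 CPM in SRF and 3.01, 2.44 and 5.8 CPM in SRF-FOXO1 (log2 fold change 2.93, SE 0.53, adjusted p 0.0436, 0.0524 with the block). With the block, 2 of these 10 rises and 7 of the 8 falls reported here by the same rule, other than Srf, were called. In 7 of the 10 rises all pMSCV libraries lay below all fusion libraries, and in the 8 falls they lay above. The SRF-ICA1L and SRF-RELA means lay between those of SRF and SRF-FOXO1 in 9 of the 10 rises and in the 8 falls. Some other named genes reached or passed the fusion range in pMSCV replicate 2. Pink1, given below, was at 19.8, 72.8 and 15.2 CPM in pMSCV, Postn at 0.692, 36.7 and 3.46 CPM and Mcm2 at 224, 95.6 and 259 CPM. In pMSCV replicate 2, Ddx58, Igtp and Ifit3b were at 25.7, 1.9 and 1.81 CPM, within their fusion ranges. Of the 10 rises, Pik3ip1 was within its range there too, at 32.6 CPM. Nop2, Rrp9, Hspd1, Bub1 and Gins1, at 56.9, 16.7, 452, 46 and 10.6 CPM there, lay below every fusion library. Npm1, Cct2 and Cct7, at 1156, 682 and 320 CPM there, lay above every fusion library.

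**Figure D4:**
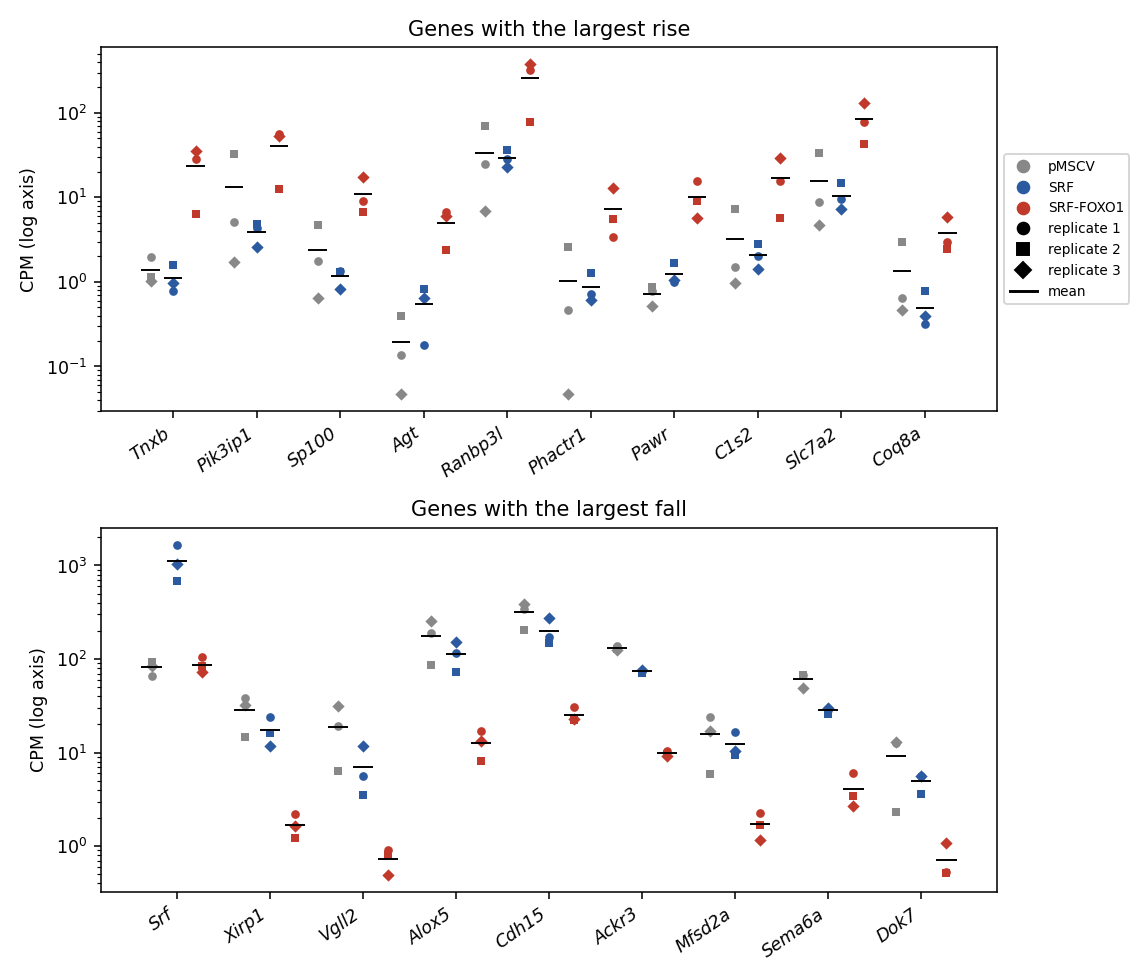
CPM (vertical, log axis) in the 3 pMSCV, 3 SRF and 3 SRF-FOXO1 libraries for the 10 genes with the largest rise and 9 genes with the largest falls, among called genes with a minimum of 50 counts in each library of whichever group was higher; marker shape gives the replicate number and black bars are means. For the rises, replicate 2 is often the lowest fusion library (Tnxb 6.33 against 28.4 and 35.2 CPM). For Ackr3 the fusion libraries lie between 9.19 and 10.5 CPM.

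Among called genes with the most counts, the rises included Cst3, the secreted protease inhibitor cystatin C, at 132, 165 and 122 CPM in SRF and 411, 361 and 1082 CPM in SRF-FOXO1 (log2 fold change 2.17, SE 0.44, adjusted p 0.0498, 0.0769 with the block). Nfix, a nuclear factor I protein of fetal myogenesis, was at 334, 322 and 237 CPM in SRF and 727, 593 and 864 CPM in SRF-FOXO1, without overlap (log2 fold change 1.31, SE 0.20, adjusted p 0.0436, 0.0514 with the block). Pam, which amidates peptides, rose by 1.37 (SE 0.22) and Itm2b, a membrane protein, by 1.5 (SE 0.29; adjusted p 0.0589 with the block). The falls were in genes of RNA and protein synthesis and folding. Npm1 (nucleophosmin, a nucleolar chaperone of ribosome assembly) was at 1905, 1532 and 2149.7 CPM in SRF and 771, 905 and 987 CPM in SRF-FOXO1, without overlap (log2 fold change -1.05, SE 0.17, adjusted p 0.0436). Eif5a, a translation factor, was at 1384, 1251 and 1371 CPM in SRF and 652, 816 and 740.2 CPM in SRF-FOXO1 (log2 fold change -0.84, SE 0.13, adjusted p 0.0436, 0.0514 with the block), and Hspd1, the mitochondrial chaperonin, at 1239.9, 1049 and 1413 CPM in SRF and 517, 744 and 602 CPM in SRF-FOXO1 (log2 fold change -0.97, SE 0.18, adjusted p 0.0436, 0.0525 with the block). Eif4a1, a translation initiation helicase, had a log2 fold change of -0.79 (adjusted p 0.0436, 0.0536 with the block) and Hnrnpa1, an RNA-binding protein, -0.68 (adjusted p 0.0436, 0.0525 with the block).

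Cytoskeletal SRF targets differed in both directions: 1 of 29 was called higher and 2 lower, and 0 with the block. There were 2 and 2 without SRF-FOXO1 replicate 2, and 5 higher and 4 lower in DESeq2. Fold changes ran from -1.09 to 0.93, with a median of -0.10 (0.14 without SRF replicate 3). At an unadjusted p under 0.05 in the reported fit, 5 were higher and 4 lower. Tpm2, a muscle tropomyosin, was at 247, 295 and 281 CPM in SRF and 447, 514 and 433 CPM in SRF-FOXO1, higher in every fusion library (log2 fold change 0.78, SE 0.13, adjusted p 0.0436, 0.0514 with the block). Pfn1 (profilin, which binds actin monomers) was at 892, 876 and 1067 CPM in SRF and 596, 616 and 571 CPM in SRF-FOXO1 (log2 fold change -0.65, SE 0.13, adjusted p 0.046, 0.0594 with the block), and Tes (testin, of focal adhesions) at 202, 211 and 223 CPM in SRF and 143, 144 and 122 CPM in SRF-FOXO1, both lower without overlap (log2 fold change -0.62, SE 0.12, adjusted p 0.0458, 0.0576 with the block). Actb was at 2501, 2886 and 3818 CPM in SRF and 2887, 2381 and 2413 CPM in SRF-FOXO1 and Vcl (vinculin) at 252, 349.8 and 399 CPM in SRF and 463, 503 and 337 CPM in SRF-FOXO1, and in both the groups overlapped. Smooth muscle contractile genes had a median of 0.01, with 0 higher and 2 lower of 14 (1 with the block, 3 higher and 3 lower without SRF-FOXO1 replicate 2 and in DESeq2). The called genes were Des, above, and Susd5, a membrane protein, at 4.18, 1.74 and 7.02 CPM in SRF and 0.654, 0.234 and 0.401 CPM in SRF-FOXO1 (log2 fold change -3.29, SE 0.64, adjusted p 0.046). Acta2, smooth muscle actin, was at 973, 2187 and 3902 CPM in SRF and 2186, 2923 and 1883 CPM in SRF-FOXO1, with overlap, and Lmod1, an actin nucleator of smooth muscle, was at 3.23, 8.27 and 19.2 CPM in SRF and 32.2, 29.4 and 37.3 CPM in SRF-FOXO1 without overlap (log2 fold change 1.7, SE 0.57, adjusted p 0.107).

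Immediate-early SRF targets varied widely within each line. In 18 of 19 tested, replicate 2 was the highest SRF-FOXO1 library. Fos was at 388, 221 and 1.0 CPM in SRF and 5.14, 361 and 4.64 CPM in SRF-FOXO1, and Egr1 at 981, 1576 and 127 CPM in SRF and 161, 3252 and 209 CPM in SRF-FOXO1. In both, SRF replicates 1 and 2 and SRF-FOXO1 replicate 2 were above the other 3 libraries. Fosl2, the exception and the member with the smallest p, was at 92, 118 and 78.9 CPM in SRF and 110.1, 128 and 139 CPM in SRF-FOXO1, with replicate 3 the highest fusion library and overlap between the lines. Of 19 tested, 0 were called and 0 had an unadjusted p under 0.05 in edgeR. The block also called 0, as did DESeq2 among the 17 it tested. Without SRF-FOXO1 replicate 2, 3 were called lower. The median of 0.20 became -1.58 without SRF-FOXO1 replicate 2. The summed level of the list was 1411 to 5843 CPM in SRF and 1397 to 10321 CPM in SRF-FOXO1. ERK feedback genes encode phosphatases and Sprouty proteins that restrain the same signalling. Dusp6 was at 125, 116 and 91.6 CPM in SRF and 38.7, 122 and 39 CPM in SRF-FOXO1, where replicate 2 was again the highest fusion library. Of 19, 1 was called higher and 0 lower (0 with the block, 1 higher and 7 lower without SRF-FOXO1 replicate 2, 1 and 1 in DESeq2): Il17rd, an inhibitor of FGF signalling, at 7.86, 13.4 and 12.4 CPM in SRF and 40.3, 22.2 and 31.9 CPM in SRF-FOXO1 (log2 fold change 1.5, SE 0.29, adjusted p 0.0458, 0.0628 with the block). The part of the state of replicate 2 in the other results was not tested beyond the values without it.

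FOXO targets mostly had small positive fold changes, with 1 called of 27, close to the share of all genes (3.79%), and 0 with the block. Without SRF-FOXO1 replicate 2 there were 7 higher and 1 lower of 28, and in DESeq2 8 higher of 29. The median log2 fold change was 0.32 beside 0.02 for all genes, and 20 of 27 were positive, beside 51.7% of all genes. Pink1, the kinase that marks damaged mitochondria for autophagy, was at 16.5, 17.4 and 14.3 CPM in SRF and 46.9, 32.5 and 86.8 CPM in SRF-FOXO1. Its fusion libraries all lay above the SRF libraries (log2 fold change 1.81, SE 0.36, adjusted p 0.046, 0.0625 with the block). Txnip, a thioredoxin inhibitor that restrains glucose uptake, was at 6.59, 12.6 and 17.3 CPM in SRF and 52, 27 and 201 CPM in SRF-FOXO1, also without overlap, but it missed the threshold (log2 fold change 2.96, SE 0.80, adjusted p 0.0719). Sesn3, a stress sestrin, was at 14.4, 22.9 and 28.2 CPM in SRF and 66.1, 34.6 and 85.4 CPM in SRF-FOXO1 (log2 fold change 1.53, SE 0.38, adjusted p 0.0611), and Fbxo32, the atrophy ubiquitin ligase atrogin-1, at 18.7, 21.9 and 25.1 CPM in SRF and 40.1, 32 and 45.8 CPM in SRF-FOXO1 (log2 fold change 0.86, SE 0.19, adjusted p 0.0513). Neither was called, although the groups did not overlap in either. Pdk4, which limits glucose oxidation, was at 19.4, 35.1 and 103 CPM in SRF and 43.5, 24.8 and 99.5 CPM in SRF-FOXO1, and Cdkn1b (p27) at 59.1, 53.5 and 67.6 CPM in SRF and 131, 46.7 and 107 CPM in SRF-FOXO1, with overlap in both.

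Upstream of FOXO, 2 of 24 insulin and IGF pathway genes were called higher and 0 lower (0 with the block), with a median of 0.38. Without SRF-FOXO1 replicate 2, 7 were higher, and DESeq2 called 7 higher and 2 lower. Pik3ip1, a transmembrane inhibitor of PI3-kinase, was at 4.36, 4.8 and 2.57 CPM in SRF and 56.2, 12.5 and 53 CPM in SRF-FOXO1. SRF-FOXO1 replicate 2 was lower than the other fusion libraries and above all SRF libraries (log2 fold change 3.4, SE 0.60, adjusted p 0.0436, 0.0779 with the block). Pik3r1, the p85 regulatory subunit, was at 91.6, 113 and 70.4 CPM in SRF and 252, 171 and 339 CPM in SRF-FOXO1 (log2 fold change 1.49, SE 0.29, adjusted p 0.046, 0.0762 with the block). Igf1 was at 0.545, 0.869 and 2.53 CPM in SRF and 10.3, 0.938 and 139 CPM in SRF-FOXO1, where replicate 3 carried most of the mean and replicate 2 lay within the SRF range (log2 fold change 5.26, SE 1.76, adjusted p 0.107). Foxo3 was at 33.5, 40.1 and 29.5 CPM in SRF and 49.7, 56.5 and 47.9 CPM in SRF-FOXO1 (log2 fold change 0.60, SE 0.15, adjusted p 0.061), without overlap and not called.

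Matrix genes had the highest median of the pathway and function lists (cell type markers not counted), 0.88, with 4 of 38 called higher and 1 lower (1 and 1 with the block). Without SRF-FOXO1 replicate 2 there were 16 higher and 1 lower, and in DESeq2 14 higher and 2 lower. The median was 0.29 without SRF-FOXO1 replicate 3 and 1.24 without replicate 2. By pairs of the same number it was 0.81, -0.00 and 1.47. Postn (periostin) was at 2.23, 3.2 and 7.63 CPM in SRF and 35.6, 15.4 and 33.4 CPM in SRF-FOXO1, with every fusion library above every SRF library (log2 fold change 2.71, SE 0.54, adjusted p 0.048, 0.0517 with the block). Col16a1, a fibril-associated collagen, was at 17.2, 26.6 and 20.1 CPM in SRF and 78.3, 41.4 and 56.6 CPM in SRF-FOXO1 (log2 fold change 1.49, SE 0.27, adjusted p 0.0436, 0.0623 with the block), and Fbln5, an elastic fibre protein, at 49.6, 44.6 and 37.4 CPM in SRF and 96.6, 136 and 116 CPM in SRF-FOXO1 (log2 fold change 1.42, SE 0.17, adjusted p 0.0436). Hmcn1 (hemicentin, a basement membrane linker) went the other way, at 8.5, 2.06 and 4.88 CPM in SRF and 0.305, 0.141 and 0.134 CPM in SRF-FOXO1. Its fusion libraries were all under 1 CPM (log2 fold change -4.67, SE 0.68, adjusted p 0.0436). Col6a2, a chain of type VI collagen, was at 88.3, 121 and 122 CPM in SRF and 590.1, 183 and 1131 CPM in SRF-FOXO1, and Mmp2, the gelatinase, at 504, 541 and 339.9 CPM in SRF and 1534, 838 and 2478 CPM in SRF-FOXO1. Neither overlapped between groups and neither was called (adjusted p 0.061 and 0.0525). Of 25 matrix proteases and inhibitors, 0 were called and 11 had an unadjusted p under 0.05, with a median of 0.61. The block called 2 of them higher and DESeq2 9 higher and 2 lower. Leaving out SRF-FOXO1 replicate 2 gave 8 higher and 4 lower.

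Fibroblast markers, of which Dcn, Lum and Col3a1 are also in the matrix list, had positive fold changes too. Of 7 tested, 7 had a positive fold change and 1 was called higher, Pdgfra, the receptor of fibroblasts and mesenchymal progenitors, at 21.4, 31.5 and 13.1 CPM in SRF and 66.5, 57 and 95 CPM in SRF-FOXO1 (log2 fold change 1.75, SE 0.34, adjusted p 0.046, 0.082 with the block). The block called 0, DESeq2 3, and 4 were called without SRF-FOXO1 replicate 2. The summed level was 1069 to 2096 CPM in SRF and 1003 to 7416 CPM in SRF-FOXO1. Dcn (decorin) was at 15.2, 14.4 and 45.7 CPM in SRF and 153, 10.4 and 1622 CPM in SRF-FOXO1, and Lum (lumican) at 0.727, 0.137 and 0.523 CPM in SRF and 11.8, 0.141 and 62.4 CPM in SRF-FOXO1. SRF-FOXO1 replicates 1 and 3 were high and replicate 2 was within or below the SRF range. Their part in the matrix result was not tested. Of pericyte markers 4 were tested and 0 called (0 with the block, 1 higher and 1 lower without SRF-FOXO1 replicate 2, 1 in DESeq2, and 1 at an unadjusted p under 0.05), and Myh11 was near 0 in all 6 libraries. The endothelial markers in the table, Cdh5 and Tek, were under 1 CPM throughout. Macrophage markers summed to at most 6.81 CPM in SRF and 12.6 CPM in SRF-FOXO1. Of these Lyz2 (lysozyme) was at 0.318, 2.15 and 0.0872 CPM in SRF and 8.5, 5.25 and 6.87 CPM in SRF-FOXO1, without overlap and not called (log2 fold change 3.03, SE 0.94, adjusted p 0.0894). Of the chondrocyte markers 2 were tested and 0 called. The collagen gene Col2a1 was at 0.727, 3.38 and 1.35 CPM in SRF and 8.46, 33.4 and 3.84 CPM in SRF-FOXO1 (log2 fold change 3.07, SE 0.93, adjusted p 0.0859), without overlap, while Sox9 was at 128, 232 and 119 CPM in SRF and 78.8, 214 and 72.1 CPM in SRF-FOXO1, with overlap. Of the adipocyte markers 3 were tested and 0 called. Cebpa, a transcription factor of fat cell differentiation, was at 9.81, 13.9 and 7.63 CPM in SRF and 18.7, 26.9 and 28 CPM in SRF-FOXO1, without overlap (log2 fold change 1.25, SE 0.27, adjusted p 0.0512), while Pparg overlapped between the lines and Fabp4 was under 1 CPM throughout. In each of the macrophage, chondrocyte and adipocyte lists 1 marker had an unadjusted p under 0.05 and 1 was called by DESeq2. The block and the fit without SRF-FOXO1 replicate 2 called 0 of them, and their part in the other results was not tested. The neural tubulin gene Tubb3 was called lower, at 76.1, 62.1 and 77.4 CPM in SRF and 23.1, 19.7 and 11.6 CPM in SRF-FOXO1 (log2 fold change -1.97, SE 0.26, adjusted p 0.0436).

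Of 34 chemokines, cytokines and growth factors, 3 were called higher and 2 lower (0 and 4 with the block), with a median of 0.43, which was 0.04 without SRF-FOXO1 replicate 2 and 0.23 without SRF replicate 3. DESeq2 called 10 higher and 5 lower, and 7 and 6 were called without SRF-FOXO1 replicate 2. Hgf, the ligand that activates satellite cells through MET, was at 12.3, 23.5 and 17.3 CPM in SRF and 102, 61.6 and 141 CPM in SRF-FOXO1. The fusion libraries were highest, replicate 2 least (log2 fold change 2.54, SE 0.37, adjusted p 0.0436, 0.0556 with the block). Kitl (stem cell factor) was at 108, 183 and 112 CPM in SRF and 336, 285 and 507 CPM in SRF-FOXO1 (log2 fold change 1.51, SE 0.30, adjusted p 0.046, 0.0617 with the block), and Vegfd, a lymphangiogenic factor, at 44.2, 42.8 and 26.8 CPM in SRF and 128, 69.8 and 100.3 CPM in SRF-FOXO1 (log2 fold change 1.41, SE 0.28, adjusted p 0.046, 0.0525 with the block). Pdgfc, a ligand of PDGF receptor alpha, was lower, at 37.8, 34.7 and 58.6 CPM in SRF and 12.6, 16.3 and 13.6 CPM in SRF-FOXO1 (log2 fold change -1.61, SE 0.23, adjusted p 0.0436). Cxcl12, the ligand that Ackr3 removes, was at 129, 95.6 and 49 CPM in SRF and 342, 82.6 and 672 CPM in SRF-FOXO1, with overlap and no call (log2 fold change 2.03, SE 0.74, adjusted p 0.13). Of 34 TGF-beta and BMP pathway genes 0 were called. At an unadjusted p under 0.05 there were 13, all higher, beside 15.8% of all genes tested. The median of the 34 was 0.30 (0.49 without SRF replicate 2). The block called 1 of them higher and DESeq2 11, and without SRF-FOXO1 replicate 2 there were 5. Fst (follistatin, an activin and myostatin inhibitor) was at 11.3, 18.2 and 6.8 CPM in SRF and 30.3, 38.2 and 46 CPM in SRF-FOXO1, without overlap (log2 fold change 1.68, SE 0.36, adjusted p 0.0512).

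Of 31 interferon-response genes tested, 18 had means under 10 CPM in both lines and 30 had a positive fold change, with a median of 0.69. Of the 31, 3 were called higher and 0 lower, and 2 with the block. Without SRF-FOXO1 replicate 2, 8 of 32 tested were called higher, and in DESeq2 12 of 34. Ddx58 (RIG-I, a sensor of viral RNA) was at 10.9, 10.9 and 8.45 CPM in SRF and 30.2, 25.4 and 25.5 CPM in SRF-FOXO1, the fusion libraries close together and above SRF (log2 fold change 1.44, SE 0.17, adjusted p 0.0436). Ifit3b was at 0.182, 0.274 and 0.0436 CPM in SRF and 2.09, 1.22 and 3.48 CPM in SRF-FOXO1 (log2 fold change 3.75, SE 0.68, adjusted p 0.0436, 0.0545 with the block), and its reads may be shared with the near-identical Ifit3. Igtp, an immunity-related GTPase, was at 0.0909, 0.457 and 0.261 CPM in SRF and 1.61, 2.11 and 1.61 CPM in SRF-FOXO1 (log2 fold change 2.71, SE 0.55, adjusted p 0.046, 0.0514 with the block). As given above, pMSCV replicate 2 lay within the fusion range for these 3 genes. The MHC class I partner B2m was at 272, 278 and 262 CPM in SRF and 339, 322 and 457 CPM in SRF-FOXO1, without overlap and not called. The median was 0.94, 0.54 and 0.80 in the pairs of libraries with the same number.

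Genes of DNA replication and mitosis mostly had small negative fold changes: 40 of 41 had a negative fold change, with a median of -0.53, and 3 were called lower and 0 higher (0 with the block, 16 lower without SRF-FOXO1 replicate 2, 21 in DESeq2). At an unadjusted p under 0.05, 0 of the 41 were higher and 27 lower, beside 15.8% and 13.5% of all genes tested. Mcm2, of the replicative helicase, was at 256, 235 and 241 CPM in SRF and 123, 156 and 129 CPM in SRF-FOXO1, with every fusion library below every SRF library (log2 fold change -0.83, SE 0.13, adjusted p 0.0436, 0.0514 with the block). Gins1, of the same helicase, was at 23.6, 23.8 and 27.4 CPM in SRF and 12.9, 15 and 14.1 CPM in SRF-FOXO1 (log2 fold change -0.82, SE 0.15, adjusted p 0.0436, 0.0524 with the block), and the spindle checkpoint kinase Bub1 at 133, 124 and 144 CPM in SRF and 75.5, 94.5 and 78.9 CPM in SRF-FOXO1 (log2 fold change -0.67, SE 0.13, adjusted p 0.046, 0.0556 with the block). Mki67, a proliferation marker, was at 665, 703 and 781 CPM in SRF and 649.7, 692 and 866 CPM in SRF-FOXO1, with overlap (log2 fold change 0.06, SE 0.15, adjusted p 0.832). Among cyclin D and CDK inhibitor genes, 1 of 12 was called higher and 1 lower (0 and 1 with the block, 3 and 1 without SRF-FOXO1 replicate 2, 2 and 1 in DESeq2). Cdk6, a partner of D-type cyclins, was at 107, 103 and 154 CPM in SRF and 53.7, 48.4 and 69.6 CPM in SRF-FOXO1 (log2 fold change -1.06, SE 0.21, adjusted p 0.046), and Rbl2 (p130, a pocket protein of resting cells) at 53.5, 52.3 and 43.7 CPM in SRF and 91.1, 81 and 116 CPM in SRF-FOXO1 (log2 fold change 0.97, SE 0.17, adjusted p 0.0436, 0.0525 with the block). Cdkn1a (p21) was at 209, 323 and 178 CPM in SRF and 155, 506 and 185 CPM in SRF-FOXO1, with overlap.

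The remaining lists held at most 2 calls each. Of 16 Notch pathway genes 1 was called higher and 1 lower (0 and 1 with the block, 1 and 1 without SRF-FOXO1 replicate 2, 2 and 2 in DESeq2). The ligand gene Jag2 was at 26.7, 24.4 and 37.5 CPM in SRF and 12.2, 8.11 and 5.22 CPM in SRF-FOXO1 (log2 fold change -1.77, SE 0.33, adjusted p 0.0449, 0.0576 with the block), and the coactivator Maml2 at 19.4, 24.1 and 17.6 CPM in SRF and 42.2, 34.7 and 47 CPM in SRF-FOXO1 (log2 fold change 1.04, SE 0.18, adjusted p 0.0436, 0.0525 with the block). Of 22 FAT, Dachsous and YAP genes 1 was called higher (1 with the block, 4 without SRF-FOXO1 replicate 2, 6 higher and 2 lower in DESeq2): Crim1, a membrane protein that binds BMPs, at 68.4, 72.5 and 60.4 CPM in SRF and 137, 138 and 117 CPM in SRF-FOXO1, without overlap (log2 fold change 0.98, SE 0.13, adjusted p 0.0436). Fat4, a giant protocadherin, was at 19.9, 23.6 and 18.4 CPM in SRF and 74.4, 56.7 and 219 CPM in SRF-FOXO1, and was not called (log2 fold change 2.52, SE 0.52, adjusted p 0.0512). Of 24 cholesterol synthesis genes 0 were called and 0 had an unadjusted p under 0.05. Of 25 glycolysis and hypoxia genes 0 were called and 7 had an unadjusted p under 0.05, and Gapdh was at 2816, 2175 and 1794 CPM in SRF and 1518, 1540.3 and 1045 CPM in SRF-FOXO1 (log2 fold change -0.71, SE 0.22, adjusted p 0.0854). With the block 0 genes of either list were called. DESeq2 called 0 cholesterol genes, and 2 glycolysis genes higher and 1 lower. Without SRF-FOXO1 replicate 2 there were 0 cholesterol genes and 3 glycolysis genes, these lower.

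**Figure D5:**
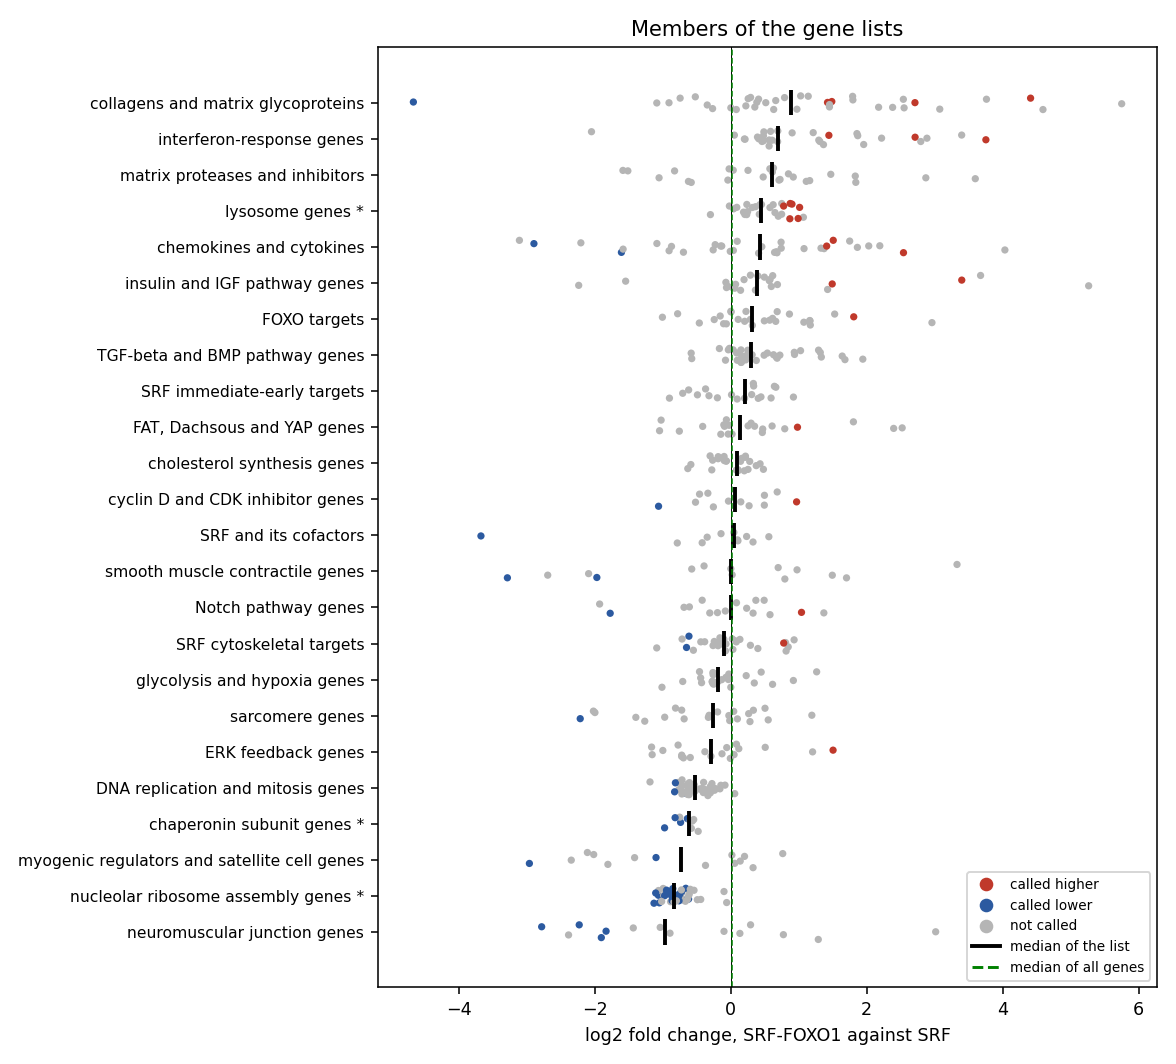
Log2 fold change in SRF-FOXO1 against SRF (horizontal axis) of each tested member of the gene lists (vertical axis), with black bars at the list medians and a dashed line at the median of all genes, 0.02. Red and blue members are called; lists with an asterisk were chosen after the calls had been seen. Medians run from -0.97 for neuromuscular junction genes to 0.88 for collagens and matrix glycoproteins.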

How the data were processed

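RNA was measured in 17 libraries of C2C12 cells in 6 groups, and the 6 libraries of SRF and SRF-FOXO1 were compared. The authors deposited raw gene counts, 1 table of 15062 genes, used as deposited. Per the submitters' processing notes, which give names without roles, FastQC 0.11.8, Trimmomatic 0.39, HISAT2 2.12.1, featureCounts, Subread 2.0.0 and the build GRCm38 were used. The annotation and the strand setting of the counting are not given in the sources used here, so reads of overlapping, antisense and near-identical genes may be split in unknown ways. Library groups and numbers come from the titles. Symbols missing for 1531 genes were filled for 1519 by identifier from a reference table, and gene positions come from GENCODE vM21 on GRCm38. Promoters come from RefSeq by symbol.

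Counts were filtered with edgeR's filterByExpr, scaled by TMM and tested with robust quasi-likelihood fits (edgeR 4.0.16, limma 3.58.1, R 4.3.3), with a term for group. P-values were adjusted by Benjamini-Hochberg over 13949 genes. The standard error (SE) is the log2 fold change divided by the square root of the F statistic. CPM uses TMM factors over all libraries. The biological coefficient of variation was 29.3% (23.4% with the block, 36.5% over 17 libraries). Libraries of a group differed by 31.5 to 152 chi-square per degree of freedom, so none was counted as a duplicate. The procedure was tested on simulated data. Those libraries were drawn independently, with no effect of replicate number and no outlying library. The simulation therefore cannot show how the calls depend on either.

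The numbers were taken to pair the libraries because deviations from the group means correlated across genes at 0.238, 0.263 and 0.340 between libraries of the same number, and at -0.261 to 0.080 between others. The labels do not say what a number shares. Named genes were Srf, Foxo1 and the cofactor genes; the 10 largest rises and falls among called genes with no overlap, a minimum of 50 counts in each library of whichever group was higher, and a symbol that is not of a predicted gene; the 5 rises and 5 falls with the highest mean CPM in their higher group; up to 4 called members of each list; and, where a list had none, the member with the smallest p. A few genes that the rule names are not reported here. Other genes named were chosen after their values were seen. The genes, the lists and the choice of the 6-library fit were made with earlier results of these data known. Alternatives were DESeq2 1.42.0, other scalings and filters, all 17 libraries, the block and leaving out each library.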

Additional observations from a re-analysis of the deposited data

How the results depend on the processing

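The count of 528 was 529 with DESeq2-type size factors, 578 with total counts, 540 without robust dispersions and 451 without a filter. It moved to 823 with at least 50 counts in 3 libraries (fewer genes tested), 2649 with DESeq2, and 1 in the fit of all 17 libraries. Leaving out 1 library gave 1 to 1808 calls, the highest without SRF-FOXO1 replicate 2 and 6 or fewer without any 1 of the others. Leaving out both libraries numbered 2, chosen after seeing the data, gave 259, of which 138 were among the 528. In that fit 14 of 46 nucleolar ribosome assembly genes, a list given below, and 2 of 41 DNA replication and mitosis genes were called, all lower. Of 38 matrix genes 6 were called higher and 1 lower. The interferon-response, TGF-beta and BMP, and chaperonin lists had 0 calls. Apart from fewer samples or genes, the cause of the moves in the counts was not tested.

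A block for replicate number gave 219 calls in 6 libraries (104 higher, 115 lower) and 1 in all 17. The 135 shared genes are 25.6% of the 528 and 61.6% of the 219. Of the 69 named genes called, 21 were called with the block, 69 with DESeq2 and 1 (Srf) in the fit of all 17 libraries. None reversed in the 15 planned settings, and their fold changes moved by factors of 0.683 to 1.26. Adjusted p-values of these genes ran from 1.51e-71 (DESeq2) to 0.276 (17 libraries). List medians changed sign in at least 1 setting for sarcomere, cytoskeletal, immediate-early, smooth muscle, Notch, cyclin D, cholesterol and cofactor genes. Depth was even, and genes under about 1 CPM rest on few counts.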

Other observations

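Further groups were seen among the called genes and were described with lists written after those calls had been seen, so their counts are descriptions without support of their own. Of 46 genes of nucleolar ribosome assembly, 25 were called lower and 0 higher, and 46 had a negative fold change, with a median of -0.83 beside 0.02 for all genes. The background of lower calls was 1.87%. Nop2, a methylase of ribosomal RNA, was at 203, 163 and 215 CPM in SRF and 70.7, 115 and 76.7 CPM in SRF-FOXO1, with every fusion library below every SRF library (log2 fold change -1.13, SE 0.21, adjusted p 0.0445, 0.0556 with the block). Mybbp1a, a nucleolar repressor of transcription, was at 506, 472 and 626 CPM in SRF and 201, 316 and 241 CPM in SRF-FOXO1 (log2 fold change -1.07, SE 0.20, adjusted p 0.0436, 0.0517 with the block), and Rrp9, of the U3 particle, at 51.1, 40.9 and 50.6 CPM in SRF and 19.2, 27.8 and 18.6 CPM in SRF-FOXO1 (log2 fold change -1.11, SE 0.19, adjusted p 0.0436, 0.0525 with the block). In each of these SRF-FOXO1 replicate 2 was nearest to SRF. The empty-vector library pMSCV replicate 2 lay below every fusion library for Nop2 and Rrp9. For Mybbp1a it lay within the fusion range, at 232 CPM. By pairs of the same number the median was -1.02, -0.45 and -1.05. With the block 2 of the 46 were called, without SRF-FOXO1 replicate 2 39, and in DESeq2 42. Ubtf, the factor that opens ribosomal DNA, was at 245, 217 and 228 CPM in SRF and 195, 220.2 and 238 CPM in SRF-FOXO1, with overlap and no call.

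Of 10 chaperonin subunit genes, which fold actin and tubulin in the cytosol or proteins in mitochondria, 4 were called lower and 10 had a negative fold change, with a median of -0.62 (0 called with the block, 7 without SRF-FOXO1 replicate 2, 10 in DESeq2). Cct7 was at 503, 402 and 457 CPM in SRF and 244, 292 and 226 CPM in SRF-FOXO1 and Cct2 at 913, 767 and 890.2 CPM in SRF and 480.5, 567 and 474 CPM in SRF-FOXO1, both without overlap.

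Of 28 lysosome genes 6 were called higher and 0 lower (2 with the block, 8 without SRF-FOXO1 replicate 2, 11 in DESeq2), beside a background of 1.91%, with a median of 0.44. Creg1, a secreted lysosomal glycoprotein, was at 62.7, 69 and 50.3 CPM in SRF and 111, 123 and 129 CPM in SRF-FOXO1 (log2 fold change 1.01, SE 0.15, adjusted p 0.0436), and Smpd1, acid sphingomyelinase, at 32.5, 46.4 and 32.3 CPM in SRF and 79.3, 69.2 and 69.5 CPM in SRF-FOXO1 (log2 fold change 0.99, SE 0.17, adjusted p 0.0436, 0.0514 with the block). The groups did not overlap in either. Tfeb, the transcription factor of lysosome genes, was at 7.95, 11.3 and 8.41 CPM in SRF and 13.6, 15.4 and 16.8 CPM in SRF-FOXO1, without overlap and not called (log2 fold change 0.75, SE 0.21, adjusted p 0.0694), and the protease gene Ctsl was at 744, 476 and 391 CPM in SRF and 420.2, 437 and 434 CPM in SRF-FOXO1, with overlap.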
